A study of Mus musculus with 20 samples.

Results

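The 9 receptors described here guide blood cells into, around and out of bone marrow. They are the chemokine receptors Cxcr4, Ccr2, Ccr1, Ccr7, Ccr9, Cx3cr1 and Cxcr2, the sphingosine-1-phosphate receptor S1pr1 and the selectin ligand Selplg (PSGL-1). They were chosen by name, and each was found among the 20377 gene symbols of the count table. The row with the largest total was used for each symbol, which mattered only for Ccr9, the member with 2 rows. RNA was sequenced from male 129S4 mice of 4 months, wild-type or Fancd2-/-, the latter lacking a DNA crosslink repair gene of the Fanconi anaemia pathway. From weaning they were fed for 3 months either placebo chow or chow carrying oxymetholone, an androgen, at 300 mg/kg.

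KSL cells (cKit+ Sca1+ Lin-, the sorted fraction that holds stem and early progenitor cells) gave 12 libraries, each pooled from 5 mice. There were 3 for each of 4 groups, namely wild-type placebo, wild-type oxymetholone, Fancd2-/- placebo and Fancd2-/- oxymetholone. Oxymetholone and placebo libraries of a genotype formed 3 pairs, and a pair shared a flow cytometer setting. Erythroblasts (Ter119+ CD71-high FSC-high) came only from wild-type mice, 1 mouse per library, with 3 libraries on placebo and 3 on oxymetholone. Whole bone marrow had 1 library per genotype, both on placebo and each combined from 5 mice. Pooling means that the spread between KSL libraries is a spread between pools. The question of the series was how gene expression of Fancd2 knockout marrow responds to oxymetholone, and the comparisons below follow the receptors through diet, genotype and cell population.

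Chemokine receptors are membrane proteins that couple mainly to inhibitory G proteins and steer cells along gradients of small secreted ligands. Cxcr4, which binds Cxcl12 made by marrow stroma, holds stem cells and many leukocytes in the marrow. S1pr1 senses the lipid sphingosine-1-phosphate, which is high in blood, and promotes exit from tissues. PSGL-1 lets cells roll on P- and E-selectin of marrow vessels. Ccr2 draws monocytes and some progenitors to Ccl2, Ccr1 answers Ccl3 and Ccl5, and Ccr7 and Ccr9 lead lymphoid cells and thymus-seeding progenitors to Ccl19, Ccl21 and Ccl25. Cx3cr1, the receptor for Cx3cl1, marks monocyte and macrophage cells, and Cxcr2 draws neutrophils to Cxcl1 and Cxcl2.

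Levels are read counts per M counted reads (CPM) with TMM scaling over all 20 libraries. Counted reads numbered 10.8 M to 121 M in KSL libraries, 17.2 M to 20.8 M in erythroblast libraries, and 100.2 M and 107 M in whole marrow. Fancd2 was at 4.65 to 6.15 CPM in the 6 Fancd2-/- KSL libraries and at 12.1 to 16.5 CPM in the 6 wild-type ones. Kit, the surface receptor used in the KSL sort, averaged 480 CPM in wild-type placebo KSL cells and 0.495 CPM in placebo erythroblasts. Gata1, an erythroid transcription factor, averaged 1353 CPM in those erythroblasts. Some KSL libraries stood apart in summed markers. Fancd2-/- placebo library 3 had the lowest summed level of 12 KSL markers, 2319 CPM against 2853 to 3721 in the other 11, and the highest of 12 stromal and endothelial markers, 119 CPM against 57.7 to 100. Fancd2-/- placebo library 2 had 179 CPM of 12 late neutrophil markers, where the other 11 had 15.1 to 48.0 CPM. Wild-type placebo libraries 1 and 2 had 442 and 536 CPM of 12 B cell markers, where the other KSL libraries had 208 to 306 CPM. In bulk RNA, more cells of a type and more RNA per cell cannot be told apart.

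The promoters shown here are those of the members the results turn on. Ccr1 and Ccr2 lie near each other and had values above wild-type in Fancd2-/- placebo KSL cells, of which only Ccr1 passed the test, and Cxcr4 and Selplg differed in opposite directions between erythroblasts and KSL cells. Each line gives the 250 bases before the annotated start, read 5′ to 3′ on the gene's strand from the mm9 genome (NCBIM37). The windows are chr9:123883526-123883775 (minus strand) for Ccr1, chr9:124016672-124016921 (plus) for Ccr2, chr1:130488877-130489126 (minus) for Cxcr4 and chr5:114280511-114280760 (minus) for Selplg. Capitals mark matches, on either strand, to short core motifs of 3 blood transcription factor families: AGGAAG for ETS factors, TGTGGT for RUNX factors and AGATAA for Gata factors.

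Ccr1: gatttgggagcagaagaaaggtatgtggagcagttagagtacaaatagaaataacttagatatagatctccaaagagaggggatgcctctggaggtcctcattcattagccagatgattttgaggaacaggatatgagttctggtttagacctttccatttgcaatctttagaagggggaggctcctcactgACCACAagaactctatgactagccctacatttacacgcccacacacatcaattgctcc

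Ccr2: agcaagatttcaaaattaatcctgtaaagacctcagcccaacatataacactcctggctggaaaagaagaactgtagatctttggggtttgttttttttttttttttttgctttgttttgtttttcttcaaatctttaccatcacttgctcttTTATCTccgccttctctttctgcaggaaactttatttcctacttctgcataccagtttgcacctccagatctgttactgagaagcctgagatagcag

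Cxcr4: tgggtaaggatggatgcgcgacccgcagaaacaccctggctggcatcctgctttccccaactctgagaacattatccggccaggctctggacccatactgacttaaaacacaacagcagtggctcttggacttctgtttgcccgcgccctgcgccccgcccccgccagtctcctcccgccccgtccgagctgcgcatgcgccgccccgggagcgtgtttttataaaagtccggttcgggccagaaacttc

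Selplg: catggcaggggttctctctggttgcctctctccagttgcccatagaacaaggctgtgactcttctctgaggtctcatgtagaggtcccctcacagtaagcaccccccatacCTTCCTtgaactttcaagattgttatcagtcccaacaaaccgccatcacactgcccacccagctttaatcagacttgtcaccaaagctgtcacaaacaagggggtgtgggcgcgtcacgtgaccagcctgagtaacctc

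The Ccr1 window held 1 RUNX core, the Ccr2 window 1 Gata core, the Selplg window 1 ETS core, and the Cxcr4 window none of the 3. Among all 9 members the ETS core occurred in 4 windows, the RUNX core in 3 and the Gata core in 1. Of 20325 promoter windows of this length, 28.7% held the ETS core, 11.7% the RUNX core and 8.56% the Gata core. Ccr1 and Ccr2 shared no motif of these 3. A match is a description of letters, and binding was not measured.

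Selplg and Cxcr4 were the most abundant of the receptors in KSL cells. Per kilobase of transcript, the mean over 12 KSL libraries was 135 CPM per kb for Selplg (range 101 to 159) and 82.0 for Cxcr4 (61.7 to 100), so that their ranges did not overlap. Ccr2 followed at 16.1 CPM per kb (7.59 to 25.9) and S1pr1 at 6.10 (4.15 to 7.55). Ccr1 (2.72, range 0.877 to 6.08), Ccr7 (2.44, 1.51 to 3.13) and Ccr9 (1.77, 1.04 to 2.88) overlapped each other in level per kb. Cxcr2 (0.480, 0.253 to 0.668) and Cx3cr1 (0.296, 0.214 to 0.416) were lowest and also overlapped. The plot of receptor levels by library gives every value on one scale per gene.

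**Figure D1:**
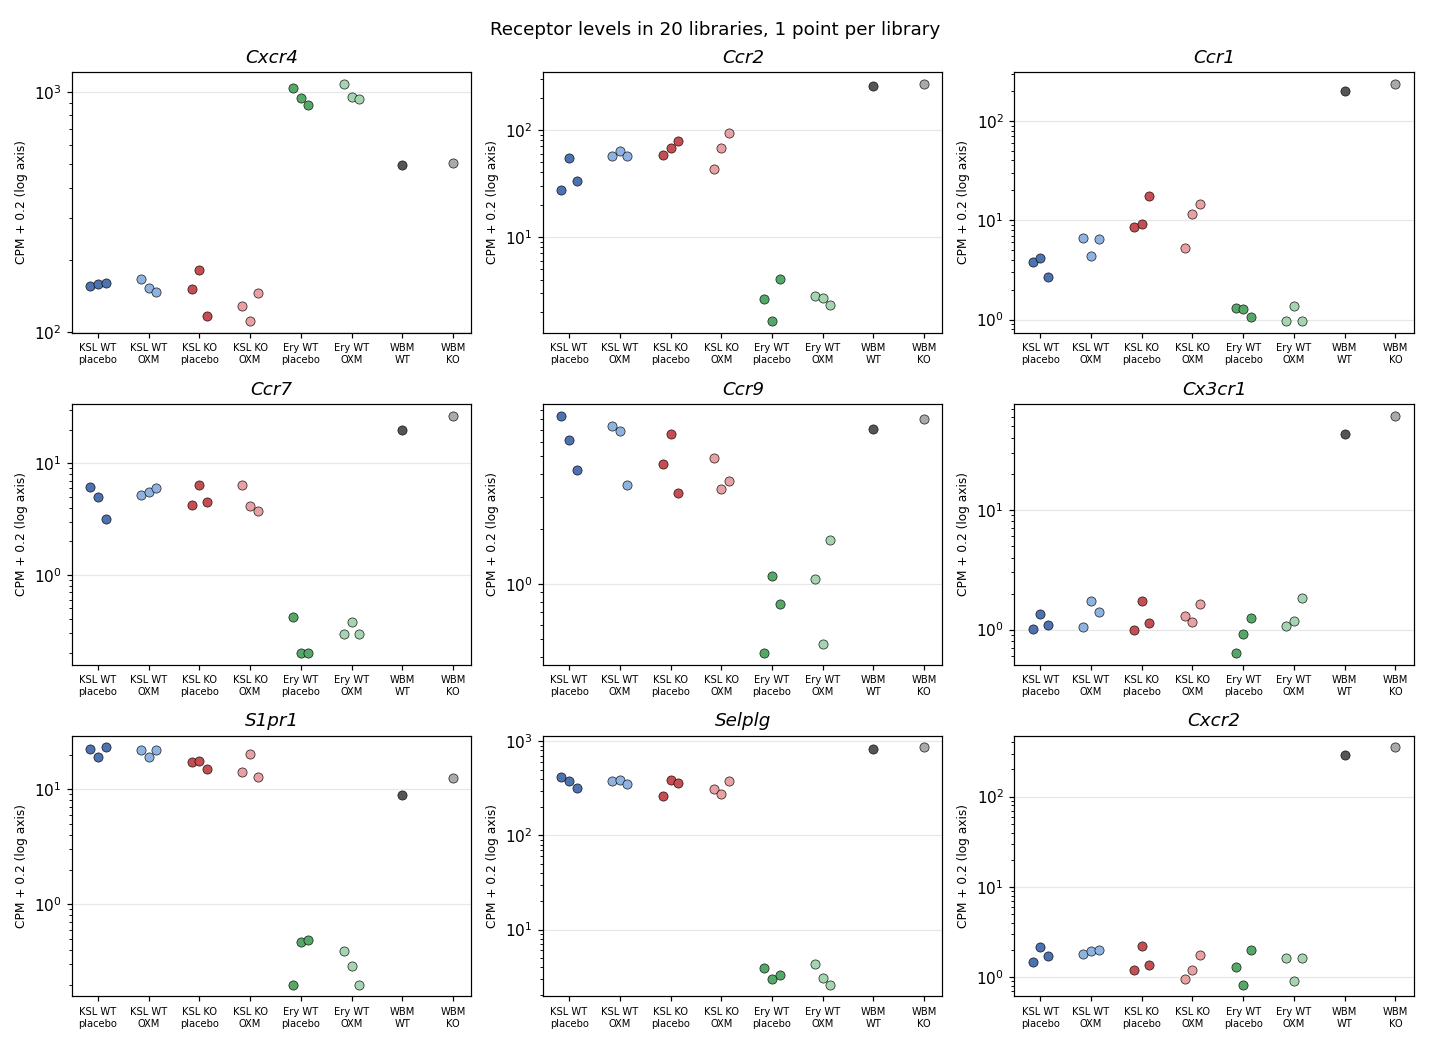
Level of each receptor (y axis, CPM plus 0.2 on a log axis) in the 20 libraries, 1 point per library, grouped on the x axis by population (KSL cells, Ery for erythroblasts, WBM for whole bone marrow), genotype (WT wild-type, KO Fancd2-/-) and diet (OXM oxymetholone). Cxcr4 is higher in erythroblasts than in KSL cells, at 882 to 1084 CPM, while Selplg, S1pr1, Ccr7 and Ccr2 are far lower there. Cxcr2, Ccr1, Cx3cr1, Ccr2, Ccr7 and Selplg are highest in whole marrow.

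Genotype was compared first within each diet. On placebo, Ccr1 was the 1 of 9 receptors called, at an edgeR adjusted p under 0.05, where 1.28% of the 13259 genes tested were called (67 higher and 103 lower in Fancd2-/-). Ccr1 stood at 3.59, 3.96 and 2.48 CPM in wild-type placebo libraries 1 to 3 and at 8.39, 8.89 and 17.2 CPM in the Fancd2-/- placebo libraries. All 3 knockout values lay above all 3 wild-type values, and library 3, which stands apart, was the highest. The log2 difference was 1.79 ± 0.37 (SE), with an adjusted p of 0.0368. Without Fancd2-/- placebo library 3 it was 1.35, with an adjusted p of 0.100, and the call held only when Fancd2-/- placebo library 1 was the one left out (adjusted p 0.0281). Leaving out the other 4 libraries one at a time gave 1.67 to 1.98 with adjusted p of 0.0551 to 0.132, and a fit to the 6 placebo libraries alone gave 1.81 (adjusted p 0.0714).

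Ccr2, the monocyte chemokine receptor beside Ccr1, showed the same direction without being called. It was at 27.3, 54.1 and 32.8 CPM in wild-type placebo libraries and at 57.3, 67.0 and 77.7 CPM in Fancd2-/- placebo libraries. The groups did not overlap, with wild-type library 2 close below the lowest knockout library. The log2 difference was 0.85 ± 0.26 (unadjusted p 0.00621, adjusted p 0.117), and DESeq2 gave 0.88 with an adjusted p of 0.0231. On oxymetholone, Ccr1 was at 6.47, 4.16 and 6.35 CPM in wild-type and 5.09, 11.4 and 14.4 CPM in Fancd2-/- libraries, which overlapped, with a log2 difference of 0.90 ± 0.36 (adjusted p 0.758). Ccr2 was at 57.2, 62.5 and 56.2 CPM against 43.1, 67.3 and 93.1 CPM, with wild-type inside the knockout range and a log2 difference of 0.22 ± 0.26 (adjusted p 0.999). On that diet 0 of 9 receptors were called against 0.128% of genes, and 2 (Ccr1 and S1pr1) had an unadjusted p under 0.05. DESeq2 also called 0 of 9 there.

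S1pr1, the egress receptor, was lower in Fancd2-/- KSL cells on placebo without passing the test. Its levels were 22.2, 19.0 and 22.9 CPM in wild-type and 17.1, 17.3 and 14.7 CPM in Fancd2-/- placebo libraries, which did not overlap. The log2 difference was -0.36 ± 0.17 (adjusted p 0.273). On oxymetholone the values were 21.7, 18.7 and 21.6 CPM against 13.8, 20.2 and 12.6 CPM, where knockout library 2 lay among the wild-type ones. That difference was -0.41 ± 0.17 (unadjusted p 0.0343, adjusted p 0.812).

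The abundant retention and rolling receptors had differences close to 0 between genotypes on placebo. Cxcr4 was at 155, 158 and 161 CPM in wild-type placebo libraries and at 151, 181 and 117 CPM in Fancd2-/- placebo libraries, a narrow wild-type group inside a wider knockout one. The log2 difference was -0.06 ± 0.14 (adjusted p 0.847). Selplg was at 415, 380 and 319 CPM against 264, 390 and 361 CPM, which overlapped, with a difference of -0.11 ± 0.16 (adjusted p 0.733). Ccr7, Ccr9, Cx3cr1 and Cxcr2 also overlapped between genotypes on placebo, and over the 9 receptors the median log2 difference was -0.06, beside -0.01 over all genes tested. On oxymetholone Cxcr4 was at 167, 152 and 147 CPM in wild-type and 128, 111 and 146 CPM in Fancd2-/- libraries. Every knockout value was below every wild-type value, library 3 of the knockout by little, and the difference was -0.27 ± 0.14 (unadjusted p 0.0765, adjusted p 0.979). Selplg was at 382, 384 and 353 CPM against 313, 272 and 379 CPM, which overlapped, with a difference of -0.21 ± 0.16 (adjusted p 0.999). On that diet 7 of 9 receptors were below 0 and their median was -0.24, beside 0.01 over all genes.

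**Figure D2:**
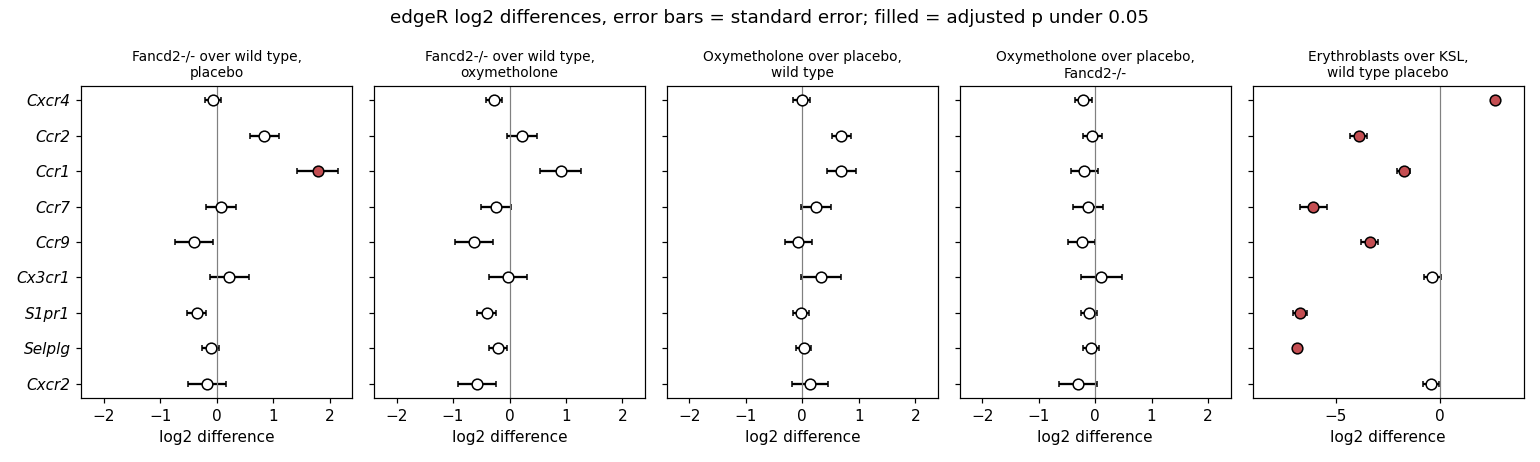
Log2 differences of the 9 receptors from edgeR (x axis, wider in the last panel) with standard errors as bars, for genotype within each diet, oxymetholone within each genotype, and erythroblasts over KSL cells. Filled points have an adjusted p under 0.05: Ccr1 in the genotype comparison on placebo, at 1.79, and 7 receptors in the erythroblast comparison.

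Ccr1 and Ccr2 belong to a cluster of receptor genes on chromosome 9 (mm9). Ccr1 occupies chr9:123876959-123883525 on the minus strand and Ccr2 chr9:124016922-124023879 on the plus strand, with Ccr3 between them. Ccr3, at 0.570 CPM on average in wild-type placebo cells, had a difference of 1.02 that was not called (adjusted p 0.213). Ccr9, the thymus-homing receptor farther along the cluster (chr9:123676329-123692575), had -0.40 (adjusted p 0.518), and Cxcr6 beside it -0.70 (adjusted p 0.383). Chemokine receptor genes of this cluster, such as Ccr1, Ccr1l1 and Ccr3, are close relatives in sequence, and the sources used here do not say how multiply aligned reads were counted, so a share of their reads may be exchanged.

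**Figure D3:**
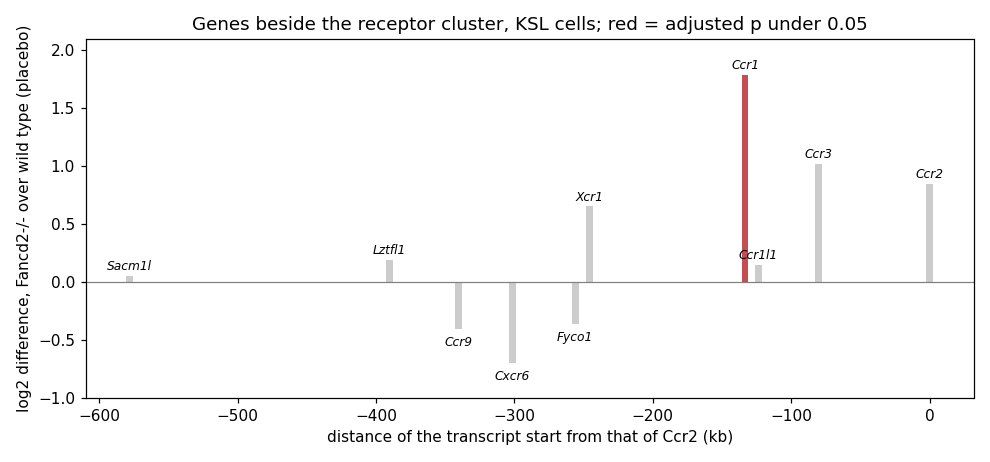
Log2 difference between Fancd2-/- and wild-type KSL cells on placebo (y axis) for tested genes from Sacm1l to Ccr2, placed by the distance of each transcript start from that of Ccr2 in kb (x axis). The red bar, Ccr1 at 1.79, has an adjusted p under 0.05, Ccr2 stands at 0.85, and Ccr9 and its neighbours Fyco1 and Cxcr6 are below 0.

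Monocytes and macrophages also carry Ccr1 and Ccr2, so their markers were read beside these results. The summed level of 16 monocyte and macrophage markers was 255 to 331 CPM in wild-type placebo and 279 to 327 CPM in Fancd2-/- placebo KSL libraries, ranges that overlap. Of these 16 genes, 11 were above 0 and 5 below, with a median log2 difference of 0.16 and 0 called. An unadjusted edgeR p under 0.05 held for 3 of them and for 19.6% of all genes tested. Csf1r, a defining monocyte receptor, was at 5.81, 6.84 and 3.95 CPM against 3.08, 6.06 and 3.53 CPM. Ly6c2, a marker of inflammatory monocytes, was at 0.989, 0.511 and 0.701 CPM against 1.20, 1.98 and 4.49 CPM, and all knockout values were the higher ones. Csf1r and Ly6c2 were a small part of the summed level, most of which came from markers not named here. Summed T and NK cell markers (11 genes) were 139 to 189 CPM in wild-type and 194 to 254 CPM in Fancd2-/- placebo libraries. Of these 11 genes, 7 averaged under 1 CPM in each of the 2 groups, so that few genes carried the sum. The 12 KSL markers were 3360 to 3721 against 2319 to 3064 CPM. Mast cell and basophil markers (12 genes) were 7.66 to 8.92 against 12.7 to 20.3 CPM, with 10 of 10 tested above 0, and megakaryocyte markers (12 genes) 582 to 669 against 292 to 425 CPM. These 4 sums did not overlap between genotypes, while the lymphoid, dendritic, B cell, erythroid and stromal sums did. Above 0 were 3 of 5 T and NK, 3 of 12 KSL and 2 of 11 megakaryocyte markers tested, and the others were below. How often groups of 3 libraries do not overlap over all genes was not counted. Late neutrophil markers (12 genes) were 35.1, 38.8 and 48.0 CPM against 29.0, 179 and 35.4 CPM, with 12 of 12 above 0 and 0 called. Only library 2 of the knockout was above the wild-type values. The part of these marker levels in the Ccr1 and Ccr2 differences was not tested.

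Oxymetholone was tested within pairs. In wild-type KSL cells 0 of 9 receptors were called (0.0% of 13259 genes), while 2 receptors and 356 genes had an unadjusted p under 0.05. DESeq2 called 0 receptors and 4 genes there. Ccr2 went from 27.3 to 57.2 CPM in pair 1, from 54.1 to 62.5 CPM in pair 2 and from 32.8 to 56.2 CPM in pair 3. All 3 pairs were higher on oxymetholone, with a log2 difference of 0.69 ± 0.16 (unadjusted p 0.00109, adjusted p 0.999). DESeq2 gave 0.70 for Ccr2 with an adjusted p of 0.0526, close to the threshold. Ccr1 went from 3.59 to 6.47, from 3.96 to 4.16 and from 2.48 to 6.35 CPM, higher in 3 of 3 pairs, with a difference of 0.69 ± 0.25 (unadjusted p 0.0172, adjusted p 0.999). Neither receptor passed the adjusted threshold.

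In Fancd2-/- KSL cells 0 of 9 receptors were called (0.0% of genes), 0 had an unadjusted p under 0.05, and DESeq2 called 0 genes. Ccr2 went from 57.3 to 43.1, from 67.0 to 67.3 and from 77.7 to 93.1 CPM in pairs 1 to 3. The pairs moved in different directions, and the difference was -0.05 ± 0.16 (adjusted p 0.933). Ccr1 was higher in 1 of 3 pairs, with a difference of -0.19 ± 0.24 (adjusted p 0.815). Cxcr4 went from 151 to 128, from 181 to 111 and from 117 to 146 CPM, with a difference of -0.21 ± 0.15 (adjusted p 0.699). Selplg had a difference of -0.08 ± 0.13 (adjusted p 0.868), and all 9 receptors lay between -0.30 and 0.11.

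**Figure D4:**
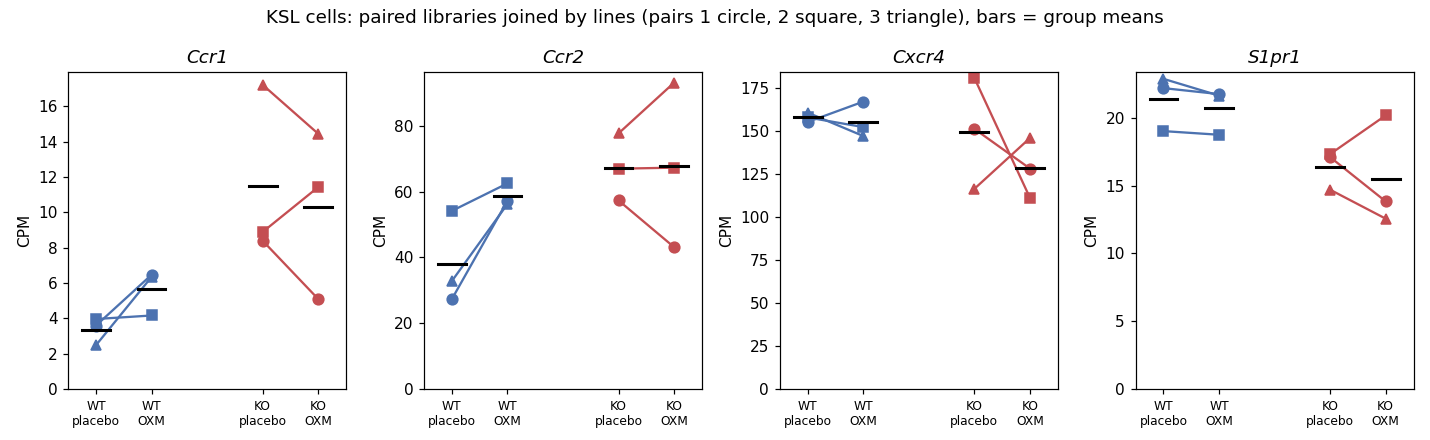
Levels of Ccr1, Ccr2, Cxcr4 and S1pr1 in KSL cells (y axis, CPM from 0) with the placebo and oxymetholone (OXM) libraries of a pair joined by a line, wild-type (WT) in blue and Fancd2-/- (KO) in red, and group means as black bars. Ccr1 and Ccr2 are higher on oxymetholone in 3 of 3 wild-type pairs, while the Fancd2-/- pairs point in different directions.

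The difference between these diet effects was itself tested. The interaction was -0.74 ± 0.23 for Ccr2 (unadjusted p 0.00713, adjusted p 0.953) and -0.88 ± 0.35 for Ccr1 (unadjusted p 0.0257, adjusted p 0.953). Of the 9 receptors 0 were called, against 0.0% of genes (458 genes had an unadjusted p under 0.05, and DESeq2 called 1 gene, none of the receptors). Both the genotype comparison on placebo and the wild-type diet comparison use the wild-type placebo libraries, in which Ccr1 and Ccr2 were lowest on average. For the mean of both oxymetholone effects 0 of 9 were called (0.0% of genes, with 720 at an unadjusted p under 0.05 and 13 called by DESeq2). Ccr2 had the largest mean effect among the receptors, 0.32 ± 0.12 (unadjusted p 0.0160, adjusted p 0.868).

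Of 16 chemokines and related ligands tested, some of which bind receptors outside the 9, 1 was called between genotypes on placebo. Cx3cl1, the membrane-bound ligand of Cx3cr1, fell to 4.63, 4.60 and 5.12 CPM in Fancd2-/- from 10.4, 9.03 and 8.28 CPM in wild-type libraries, groups that did not overlap. The log2 difference was -0.92 ± 0.18 (adjusted p 0.0302). Of 11 genes of sphingosine-1-phosphate receptors and metabolism, 15 of selectins and PSGL-1 modification, 20 of integrins and adhesion and 29 of receptor signalling and desensitisation, 0 were called, with 3, 1, 4 and 2 at an unadjusted p under 0.05, where 19.6% of all genes tested had such a p. Of 12 other chemokine receptors tested 8 were above 0, with a median log2 difference of 0.30. The other list medians were -0.29 for ligands, -0.08 for sphingosine-1-phosphate genes, -0.01 for selectin genes, -0.20 for integrins and -0.07 for signalling, beside -0.01 over all genes. For oxymetholone the same genes of these 6 lists were tested, and 0 were called in either KSL genotype. An unadjusted p under 0.05 held for 5 of them in wild-type and 3 in Fancd2-/- cells. Over all genes tested it held for 2.68% in wild-type and 6.81% in Fancd2-/- cells.

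Across the 12 KSL libraries, Ccr1 and Ccr2 varied together, with a Pearson r of 0.83 and a Spearman rho of 0.90 on log2(CPM + 1), and r of 0.69 after removing group means. By that last measure the pairs Cx3cr1 and Cxcr2 (0.81) and Ccr2 and Cxcr2 (0.70) were higher. Genes most like Ccr1 included Lactb (r = 0.93, rho = 0.91) and Asf1b (r = 0.92, rho = 0.96). Ccr2 was most like Cd244 (r = 0.90, rho = 0.92), a receptor of the SLAM family, then Ipo9 and Pif1. Ccr7 was most like the chemokine Ccl6 (r = 0.89, rho = 0.91), Cd7 and Il7r (r = 0.81, rho = 0.77), the interleukin 7 receptor of lymphoid progenitors. Ccr9 was most like Icos (r = 0.94, rho = 0.94), and Nfkbia and Zkscan14 came next. S1pr1 was most like Tek (r = 0.92, rho = 0.79), the angiopoietin receptor found on stem and endothelial cells, then Zfp37 and Art4 (rho = 0.94). Cxcr4 was most like Rhob (r = 0.90, rho = 0.91), Pik3ip1 and Nfkbia, an inhibitor of NF-kB. Selplg was most like Klhl36 (r = 0.95, rho = 0.81), Ddah2 and Nfyc. For Cx3cr1 the closest genes were Smpd4, Ncapd2 and Myo10, and for Cxcr2 they included Stk36 and Ptar1, at receptor levels near 1 CPM. These correlations are descriptions over 12 libraries that share pairs and groups and differ in depth. The most alike genes were picked by the largest r over all genes with a mean of at least 1 CPM, so their high r follows in part from that choice.

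Erythroblasts and KSL cells differed in 7 of 9 receptors on placebo, where 91.0% of 12538 genes were called, so that the count itself is close to the background. Cxcr4 was the 1 receptor higher in erythroblasts, at 1043, 944 and 882 CPM against 155, 158 and 161 CPM in KSL cells. No library overlapped, and the log2 difference was 2.62 ± 0.11 (adjusted p 3.32e-12), beside a median of -0.67 over all genes. With plain library totals in place of TMM that median was -2.08 and the Cxcr4 difference 1.20, still above 0. The size of each difference between the populations therefore depends on the scaling.

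The other called receptors were lower in erythroblasts by both scalings. Selplg was at 3.75, 2.79 and 3.06 CPM in erythroblasts, with a log2 difference of -6.85 ± 0.17 (adjusted p 1.52e-14). S1pr1 was at 0, 0.27 and 0.29 CPM, from 6 counts over 3 libraries, and KSL cells had 102 times as much (95% counting interval 46.7 to 277). Ccr7 had 2 counts in the 3 placebo erythroblast libraries, both in library 1, and KSL cells had 75.3 times as much (interval 20.8 to 622). Without that library Ccr7 was at 0 in the other 2, and the fitted log2 difference went from -6.09 to -10.9, a value that then depends on the prior count. S1pr1 and Ccr7 were thus at or near the limit of detection in erythroblasts, while Selplg was low but measured in every library. Ccr2 had a log2 difference of -3.90 ± 0.40, Ccr9 of -3.38 ± 0.41 and Ccr1 of -1.75 ± 0.32. Cx3cr1 (-0.37 ± 0.40, adjusted p 0.382) and Cxcr2 (-0.45 ± 0.38, adjusted p 0.268) were not called with TMM but were with plain totals, at -1.77 and -1.85.

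The low levels of the myeloid receptors in erythroblasts stood beside a trace of neutrophil RNA. Late neutrophil markers summed to 317 to 515 CPM in placebo erythroblast libraries, against 35.1 to 48.0 CPM in wild-type placebo KSL libraries and 129347 CPM in wild-type whole marrow. Ngp, a neutrophil granule protein, was at 140, 90.1 and 101 CPM in the erythroblasts. Cxcr2, a neutrophil receptor, was at 1.10, 0.631 and 1.82 CPM there and at 292 CPM in whole marrow. The part of this RNA in the erythroblast Cxcr2, Ccr1 and Cx3cr1 levels was not tested. Oxymetholone left 0 of the 6 receptors tested in erythroblasts called (0.0% of 9694 genes, with 123 at an unadjusted p under 0.05 and 0 called by DESeq2). Cxcr4 was at 1084, 957 and 934 CPM on oxymetholone, which overlapped placebo, with a difference of 0.03 ± 0.08 (adjusted p 0.999). Ccr7, Ccr9 and S1pr1 had too few reads to be tested there.

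Most genes tested of the pathways around the receptors were also called between these populations. Over all 12538 genes tested 91.0% were called, so that these counts are close to the background. Among 9 other chemokine receptors tested 5 were higher and 4 lower in erythroblasts, led by Darc, the Duffy antigen that binds chemokines on red cells (9.70 ± 0.35), and Ccrl2 (4.25 ± 0.21), both higher. Of 11 sphingosine-1-phosphate genes 5 were higher and 6 lower. Spns2, which exports sphingosine-1-phosphate, was at 404 CPM on average in KSL cells and 0.100 CPM in erythroblasts, and S1pr4 had a log2 difference of -7.21 ± 0.24. Of 15 selectin and PSGL-1 modifying genes 8 were higher and 7 lower, and Fut7, the fucosyltransferase that makes PSGL-1 a selectin ligand, averaged 76.8 CPM in KSL cells and 0.0601 CPM in erythroblasts. Of 20 integrin and adhesion genes 3 were higher and 16 lower, with Itga4, the alpha chain of VLA-4 that binds Vcam1, higher by 3.61 ± 0.13. Of 28 signalling genes 4 were higher and 22 lower, and Arrb1, which uncouples receptors from G proteins, was higher by 5.03 ± 0.13. Of 13 ligands 1 was higher and 10 lower. The median log2 differences were 1.18 for other chemokine receptors, -1.03 for sphingosine-1-phosphate genes, 0.49 for selectin genes, -3.32 for integrins, -2.90 for signalling and -5.60 for ligands, beside -0.67 over all genes. With plain library totals the higher calls over all genes fell from 4665 of 11404 to 2380 of 11629. The median log2 difference over all genes was then lower by 1.41. With TMM, 17 of the 26 genes called higher in these lists exceed 1.41, including Darc, Ccrl2, Itga4 and Arrb1.

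Whole marrow, which consists mostly of maturing cells, held more of most receptors than wild-type placebo KSL cells. In the wild-type marrow library 7 of 9 receptors lay above all 3 KSL libraries, where 44.3% of 13207 genes with at least 100 counts did. With 1 marrow library there is no test. Cxcr2 was at 292 CPM, 184 times its KSL mean, Ccr1 at 199 CPM (59.6 times) and Cx3cr1 at 43.0 CPM (45.3 times). Ccr2 was at 256 CPM (6.71 times), Ccr7 at 19.5 (4.26 times), Cxcr4 at 499 (3.15 times) and Selplg at 833 (2.24 times). Ccr9 was at 6.82 CPM, 1.13 times the KSL mean but 0.675 times it with plain library totals. S1pr1 alone was lower by both scalings, at 8.66 CPM or 0.406 times the KSL mean.

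Between the Fancd2-/- and wild-type marrow libraries, all 9 receptors had a ratio above 1, as did 50.2% of genes with at least 100 counts. A ratio above 1.3, a limit chosen after the values were seen, held for 3 of 9 receptors and 3.06% of 12424 genes. These were Cx3cr1 at 61.1 against 43.0 CPM (ratio 1.42, 95% counting interval 1.36 to 1.48), S1pr1 at 12.2 against 8.66 CPM (1.41, 1.29 to 1.56) and Ccr7 at 26.5 against 19.5 CPM (1.36, 1.28 to 1.45). Cxcr2 was at 1.20, Ccr1 at 1.19 and Ccr9 at 1.15. Summed markers were also higher in the Fancd2-/- marrow library for B cells (2801 against 2331 CPM) and stromal and endothelial cells (264 against 215). Dendritic (1576 against 1405), late neutrophil (138052 against 129347) and monocyte and macrophage sums (11546 against 10640) were higher too. So were T and NK (310 against 276) and lymphoid primed sums (1586 against 1541). Megakaryocyte (428 against 416) and mast cell and basophil sums (789 against 777) were slightly higher. Erythroid (36463 against 37966) and KSL marker sums (187 against 203) were lower. The part of these marker levels in the receptor ratios was not tested. Ccr2 (1.05), Selplg (1.03) and Cxcr4 (1.01) were closest to 1. S1pr1 thus pointed upward in Fancd2-/- whole marrow and downward in Fancd2-/- KSL cells on placebo, and the difference was not tested. The ratios have no replicate check, and the intervals cover counting error only.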

How the data were processed

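RNA sequencing was analysed from the deposited table of read counts per RefSeq transcript (26005 rows, 20 libraries). Per the labels, reads were aligned to mm9 with Bowtie and analysed by the authors with edgeR. The sources used here do not give versions, the strand setting or how multiply aligned reads were treated. For each of 20377 symbols the row with the largest total was kept. One Fancd2-/- placebo column, whose name matches no sample title, was placed in its group and in pair 1 from the design text. Table starts count from 0 and were raised by 1.

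Counts were tested with edgeR 4.0.16 (robust quasi-likelihood, TMM, filterByExpr) in R 4.3.3 with Benjamini-Hochberg adjustment over all genes tested, and adjusted p values are edgeR's unless DESeq2 1.42.0 is named. Oxymetholone in KSL cells was fitted over 12 libraries with the 6 pairs as a block. The pairing comes from the design text, and the correlation of paired deviations was 0.21, 0.50 and 0.36 in wild-type and 0.25, -0.03 and 0.32 in Fancd2-/- cells. In Fancd2-/- cells, 2 placebo libraries correlated more with a library outside their pair. These were placebo library 1 with oxymetholone library 2 (0.53) and placebo library 2 with oxymetholone library 3 (0.13). Genotype was fitted with group means over the same 12 libraries, and erythroblasts with group means over 6. The labels do not say that replicate pools came from separate litters, so p values measure the spread between these libraries. The scripts were tested on simulated data.

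Levels per kb use the GENCODE transcript whose ends lie closest. For Ccr9 these ends differ from those of the counted row by 1494 bases, and for the other members by at most 9. The Ccr9 level per kb is therefore less certain. The members and gene lists were chosen with earlier results of these data known. The named genes are the 9 members, list genes called with the smallest p (at most 6 a list), defining markers, and the 3 genes most alike to each member. A few genes chosen this way are left out here. Ccr3, Cxcr6 and Fyco1 were named after their values were seen, as neighbours of Ccr1 and Ccr2, as were the choices among called list genes. Alternatives were another normalisation, no low-count filter, DESeq2, summed transcripts, no block, fewer libraries and each library left out. Plain library totals were added after the data were seen.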

Additional observations from a re-analysis of the deposited data

How the results depend on the processing

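In the genotype comparison on placebo, 1 receptor was called, 2 with DESeq2, 0 in a fit to the 6 placebo libraries, and 0 to 1 with a library left out. Over all genes these fits called 170, 815, 11 and 19 to 236 genes. In the other 9 comparisons the count of receptors called or past the limit stayed within 1.5 times its value under each alternative run. Leaving out 1 library or pair moved these log2 differences across 0, none of them called: oxymetholone in Fancd2-/- KSL cells for Ccr1 (-0.49 to 0.039), Ccr2 (-0.17 to 0.13), Cxcr4 (-0.44 to 0.022) and Selplg (-0.23 to 0.13), genotype on placebo for Cxcr4 (-0.18 to 0.087) and Selplg (-0.18 to 0.054), genotype on oxymetholone for Ccr2 (-0.056 to 0.46), and oxymetholone in erythroblasts for Cxcr4 (-0.039 to 0.10). The cause was not tested. Without the pair block, Ccr2 in Fancd2-/- KSL cells on oxymetholone had 0.0030 in place of -0.05, and the block changed no call of a receptor. Of 69 receptor differences tested, 34 crossed 0 under some alternative, the smallest p among them being 0.186. Plain library totals, which shift the median gene between erythroblasts and KSL cells from -0.67 to -2.08, lowered the marrow to KSL ratios, to 109 for Cxcr2, 35.5 for Ccr1, 27.0 for Cx3cr1, 3.99 for Ccr2, 2.54 for Ccr7, 1.87 for Cxcr4, 1.34 for Selplg and 0.241 for S1pr1. Depth limits S1pr1 and Ccr7 in erythroblasts, at 0 to 3 counts a library.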
